A study of Rattus norvegicus with 15 samples.

Results

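The genes described here are those of the cell cycle and DNA replication in rat liver, a list of 38 genes that carry a cell from the decision to divide, through DNA synthesis, to the separation of the chromosomes. An array probe counted as a member's when the gene name printed for it, after dropping endings such as _predicted, was the member's current symbol or an older one. By that rule 34 of the 38 genes were found, on 51 of 41012 probes. The other 4, Mki67, Mcm3, Cdc45 and Cdca3, were reached through 6 probes by a description or a gene number, and their values are given apart. Each gene is shown by its brightest probe, and its other probes are given where they were bright enough to be tested.

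The livers came from 15 female Wistar Crl:WI rats, 2 to 3 months old, and the messenger RNA of each was read on 1 one-colour Agilent array. The fipronil group, 8 rats, received the phenylpyrazole insecticide fipronil at 3 mg/kg/day by feeding needle for 14 days. The vehicle group, 7 rats, received the aqueous methylcellulose and Tween 80 solution alone for the same time. RNA came from a fragment of the large lobe, so the values average over all cell types of that fragment, and fewer cells of a type and less RNA per cell cannot be told apart. The arrays lay on 4 slides, each with rats of both groups.

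Signal below is log2 intensity after division by that array's 75th percentile, so that 0 is the brightness of that percentile and 1 unit is a doubling. Differences are fipronil minus vehicle, from limma, with the standard error (SE) of the fit, and a gene passed at a Benjamini-Hochberg adjusted p under 0.05 over all 20008 features tested. The 75th percentile itself was 209.9 ± 25.8 (SD, n = 8) in the fipronil group and 171.5 ± 33.3 (SD, n = 7) in the vehicle group, and it lay between 115.4 and 269.5 over the 15 arrays (exact permutation p = 0.0202, two-sided, adjusted p = 0.0468 over 4 measures of the arrays). Any pair of arrays correlated at 0.974 or more over all probes.

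Entry into the cycle begins with D cyclins, which answer growth signals, and E cyclins, which start DNA synthesis together with CDK2. Replication origins are licensed by the MCM helicase, and the fork is then served by PCNA and by enzymes that supply nucleotides. Entry into mitosis needs CDK1 with A and B cyclins, and the spindle checkpoint holds the anaphase-promoting complex back until every chromosome is attached. Hepatocytes of an adult liver rarely divide, but they return to the cycle after loss of liver mass or under certain inducers of liver growth.

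Of the 14 tested mitotic members 13 had the higher mean signal in the fipronil group, and 1 of them passed the test. The 14 include Ccnb1, Ccnb2, Top2a, Ube2c, Ttk and Bub1b, above background on fewer than 7 vehicle arrays, so that count supports nothing by itself. Among the 8 mitotic members measured on every array, Aurka alone had the lower mean. Over all features tested the median difference was -0.03. Of the 7 tested licensing and fork genes, 2 had the higher and 5 the lower mean, and none passed even at an unadjusted p under 0.05. These include Mcm3 and Cdc45, which the naming rule did not reach. The member that passed was Mad2l1, a spindle checkpoint gene, which was higher by 0.40 (SE 0.09, limma adjusted p = 0.0480). No member passed in the lower direction, where Ccne1, cyclin E1, came nearest with a difference of -0.59 (SE 0.24, adjusted p = 0.223). Of all features tested, 0.870% passed, 0.550% as higher and 0.320% as lower, and the count over the 26 tested members rests on 1 gene. At an unadjusted p under 0.05, 12 of the 26 were higher and 1 was lower, where 6.17% of all features were higher and 11.4% were lower.

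Many members are weakly expressed in this tissue, and that bears on the counts. Of the 34 members, 18 were well above background on all 15 arrays, 11 on some arrays and 5 on none. A feature was tested if it was well above background on at least 7 arrays. That rule let in 8 members which were above background on fewer than 7 vehicle arrays: Ccnb1, Ccnb2, Top2a, Ube2c, Ttk, Bub1b, Ccne2 and Mcm4. Each of these was above background on more fipronil than vehicle arrays, so their counts and medians support nothing by themselves. Among the 18 members measured on every array, 6 were higher and 1 was lower at an unadjusted p under 0.05, with a median difference of 0.20, against -0.03 over all features tested. Over all 26 tested members the median was 0.29, and over all 34 without the filter it was 0.20, against -0.13 over all features without the filter.

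**Figure D1:**
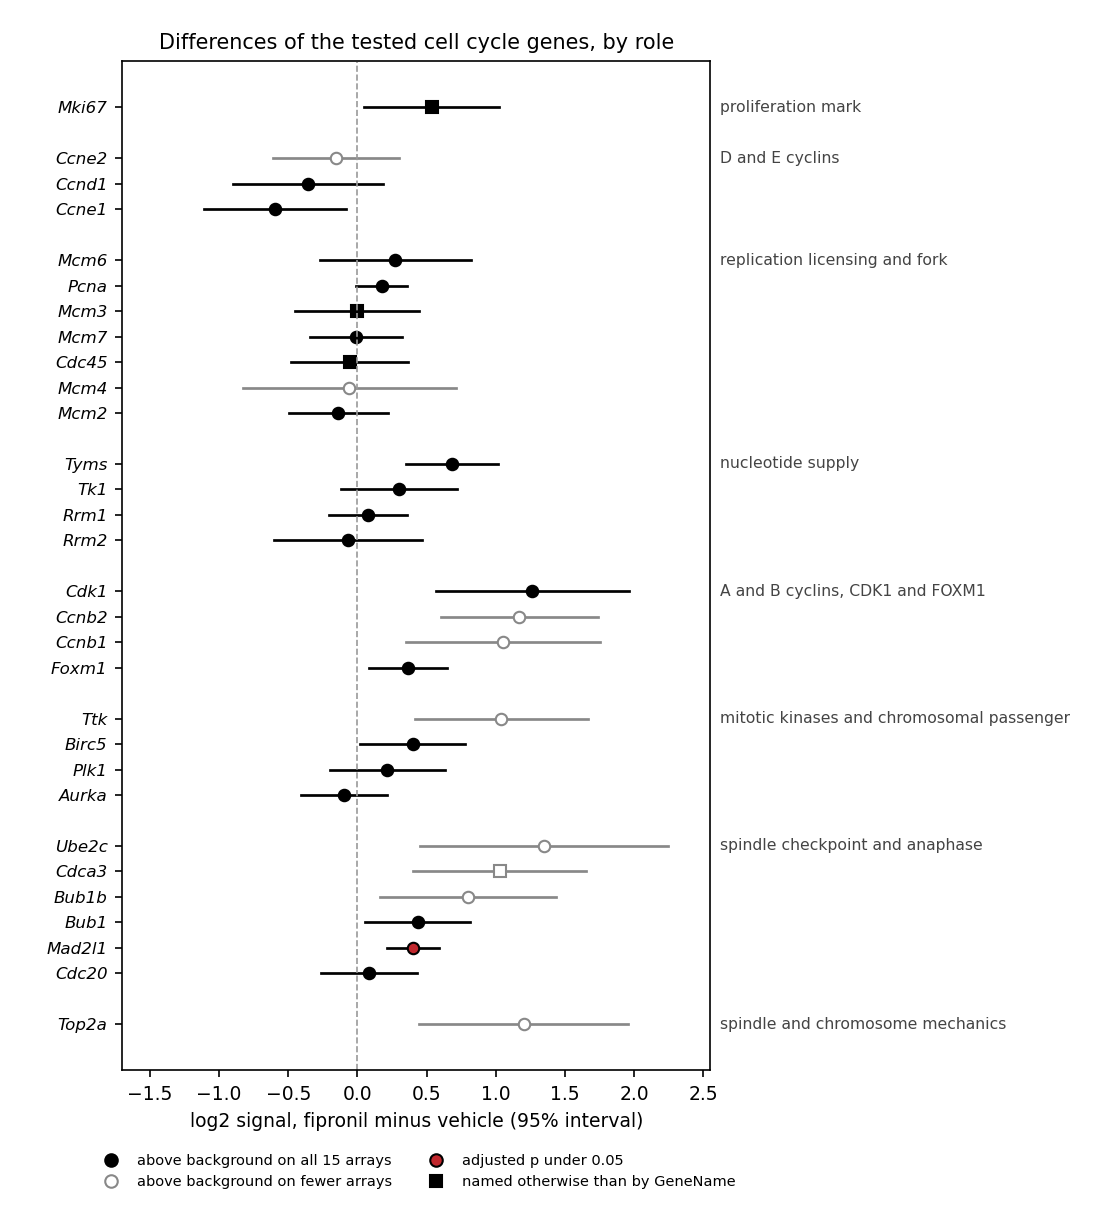
Difference in log2 signal between the fipronil and the vehicle group (x axis) for the 30 tested genes of the list (y axis), grouped by role, with the 95% interval as a bar. Grey open symbols mark genes above background on fewer than 15 arrays, squares the genes named otherwise than by the probe's gene name, and the red symbol Mad2l1, which passed; the D and E cyclins lie left of 0, the helicase genes around 0, and the A and B cyclins, CDK1 and the checkpoint genes right of 0.

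The general proliferation mark Mki67, whose protein coats mitotic chromosomes and is absent from resting cells, was measured by a probe at chr1:195310355-195313039 (build rn4, the build of all probe positions here). Its signal ran from -2.24 through a median of -1.27 to -0.50 in fipronil rats, and from -2.33 through -1.84 to -1.0 in vehicle rats. The groups overlapped, with 3 fipronil rats above the highest vehicle rat. The difference was 0.54 (SE 0.23) and did not pass (adjusted p = 0.246). A second, dimmer Mki67 probe, above background on 6 fipronil and 2 vehicle arrays, gave 1.03 (adjusted p = 0.186 in the fit of every probe).

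The cyclins of G1 and of the start of DNA synthesis had the lower means in the fipronil group, and none passed. Ccnd1, cyclin D1, was a bright gene of these livers and is read at chr1:205357582-205357641. Its signal was 1.81, 2.77 and 3.74 (lowest, median and highest) in fipronil rats and 2.47, 3.09 and 3.62 in vehicle rats, and the 2 ranges overlapped almost wholly. The difference was -0.36 (SE 0.25, adjusted p = 0.501), with a 95% interval from -0.90 to 0.18. The second Ccnd1 probe gave -0.38.

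Ccne1 was split within the vehicle group. Fipronil rats lay between -0.56 and 0.32 with a median of -0.05, and vehicle rats between -0.45 and 1.19 with a median of 0.87. No fipronil rat reached the vehicle mean of 0.50, yet vehicle rats 3 and 4, the vehicle pair of slide 2, lay among the fipronil rats. Within slides the difference was -1.39, 0.27, -0.81 and -0.63 for slides 1 to 4, and without slide 2 it was -0.94 and passed (adjusted p = 0.0455). The second, dimmer Ccne1 probe gave -0.41 (adjusted p = 0.531 in the fit of every probe). Ccne2, cyclin E2, differed by -0.15 (adjusted p = 0.761), with a 95% interval from -0.61 to 0.30.

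The replication licensing and fork genes showed no difference that passed, and their intervals were centred near 0. MCM2 to MCM7 form the ring-shaped helicase that unwinds DNA, CDC6 helps load it onto origins, and CDC45 joins it to form the active helicase. Differences were -0.14 for Mcm2 (95% interval -0.49 to 0.22), -0.06 for Mcm4 (-0.83 to 0.71), 0.27 for Mcm6 (-0.27 to 0.82) and -0.01 for Mcm7 (-0.34 to 0.32). Among the genes named otherwise, Mcm3 gave 0.00 (-0.45 to 0.44) and Cdc45 gave -0.06 (-0.48 to 0.36). Each interval reached 0.22 or more on the higher side, so the data do not show that the helicase was equal in the groups.

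Mcm5 was above background on 3 fipronil and 2 vehicle arrays and was not tested; its mean signal was -4.07 ± 0.80 (SD, n = 8) and -3.99 ± 0.57 (SD, n = 7). Cdc6 was not well above background on any array. The second probes of Mcm2 and Mcm3 gave -0.02 and 0.01, close to the first. Pcna, the sliding clamp of DNA polymerase, was the steadiest member, with a pooled SD between rats of 0.15, lower than that of all but 11.4% of features. Its probe at chr3:120008997-120009056 gave 1.36, 1.52 and 1.89 in fipronil rats and 1.16, 1.40 and 1.51 in vehicle rats. Of the 8 fipronil rats, 5 lay above the highest vehicle rat, but the difference of 0.17 did not pass (SE 0.09, adjusted p = 0.305). A second Pcna probe gave 0.39 (SE 0.095, adjusted p = 0.0686 in the fit of every probe), so the 2 probes differ in size but not in direction.

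The sequences before 3 of the helicase genes, Mcm2, Mcm6 and Mcm7, are shown because they hold letters of an E2F motif. They are the 170 bases before the annotated start in RefSeq's GRCr8 table, 5′ to 3′ on the gene's strand, and capitals mark the E2F letters TTTNNCGC, in which each N was C or G, on either strand. E2F factors are the switch that RB proteins hold off until a cell commits to DNA synthesis.
Mcm2, GRCr8 chr4:122918095-122918264, minus strand: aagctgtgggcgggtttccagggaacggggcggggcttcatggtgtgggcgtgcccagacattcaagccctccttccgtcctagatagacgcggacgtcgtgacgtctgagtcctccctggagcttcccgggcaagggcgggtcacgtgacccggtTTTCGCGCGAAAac
Mcm6, GRCr8 chr13:42404353-42404522, minus strand: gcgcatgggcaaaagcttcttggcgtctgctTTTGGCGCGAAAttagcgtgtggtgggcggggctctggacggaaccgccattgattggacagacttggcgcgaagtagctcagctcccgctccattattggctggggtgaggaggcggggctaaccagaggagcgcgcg
Mcm7, GRCr8 chr12:22163179-22163348, minus strand: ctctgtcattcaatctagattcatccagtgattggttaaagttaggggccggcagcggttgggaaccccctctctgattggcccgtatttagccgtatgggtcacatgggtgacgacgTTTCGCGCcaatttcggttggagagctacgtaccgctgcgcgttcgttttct
In Mcm2 and in Mcm6 the capitals are 2 overlapping matches on opposite strands. The capitals begin 14 bases before the start in Mcm2 and 139 bases before it in Mcm6. Those of Mcm2 make a palindrome, and those of Mcm6 do not. In Mcm7 the single match begins 52 bases before the start, and a second one begins 233 bases before it, outside the printed stretch. Of all 33469 promoters in the table, 1.73% held these letters in the 250 bases before the start. Among the 29 listed genes with an entry there, 6 did, and 5 of those 6 were among the 10 replication and nucleotide genes. Mcm3 and Cdc45 held no such letters in those 250 bases. A match is a statement about letters and not about binding, and no match says only that these letters are not in this stretch.

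The enzymes of nucleotide supply split. Tyms, thymidylate synthase, which makes the thymidine nucleotide needed only when DNA is copied, stood highest. Its probe at chr9:112605733-112605792 gave -1.94, -1.28 and -0.85 in fipronil rats and -2.29, -2.0 and -1.72 in vehicle rats. All fipronil rats but 1 lay above the highest vehicle rat, and the exception was a rat of slide 3. The difference of 0.68 (SE 0.16, 1.60-fold, 95% interval 1.27 to 2.02) fell just outside the threshold (adjusted p = 0.0529), and it was positive on every slide, from 0.35 on slide 4 to 0.95 on slide 1. After normexp background correction with quantile normalization, called normexp from here on, it was 0.31 (adjusted p = 0.0856).

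Tk1, thymidine kinase 1, differed by 0.30 (adjusted p = 0.458), but its probe maps in rn4 to another chromosome than RefSeq's Tk1 gene, so its identity is uncertain. Rrm1 and Rrm2, the large and small subunits of ribonucleotide reductase, differed by 0.08 (95% interval -0.20 to 0.36) and -0.07 (-0.60 to 0.46). The dimmer Rrm2 probe was above background on 7 fipronil arrays and on no vehicle array, with a mean of -3.48 against -4.72. It entered the fit of every probe only through the fipronil group, so its adjusted p of 0.0366 there supports nothing by itself. Since no vehicle array measured it, no fold is given for this probe. The brighter Rrm2 probe, which differed by -0.07, was above background on all 15 arrays. Rrm2 was also the only member whose brighter probe differed between slides (F test adjusted p = 0.0337, a test that 2.37% of all features passed). The dimmer Rrm1 probe, above background on 6 fipronil and 2 vehicle arrays, gave 0.51 (adjusted p = 0.152).

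Among the genes that carry a cell into mitosis, Cdk1, Ccnb2 and Ccnb1 had differences above 1 and Foxm1 a smaller one, and none of them passed. Cdk1, the kinase that starts mitosis, is the one member of this group measured on all 15 arrays with a difference above 1. Its probe at chr20:20043755-20043814 gave -1.28, 0.16 and 0.53 in fipronil rats and -2.74, -1.28 and -0.46 in vehicle rats. Of the 8 fipronil rats, 6 lay above every vehicle rat, while fipronil rats 2 and 8 lay among the vehicle rats. The difference was 1.26 (SE 0.33), 2.40-fold with a 95% interval from 1.48 to 3.90, at an adjusted p of 0.0786. After normexp it was 0.71 (adjusted p = 0.0672), and with the brightness of the array as a covariate it was 1.56 (adjusted p = 0.194).

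Ccnb2, cyclin B2, a partner of CDK1, was above background on 8 fipronil arrays and 1 vehicle array. Its signal was -3.74, -3.0 and -2.15 in fipronil rats and -4.69, -4.44 and -3.24 in vehicle rats, at chr8:74896165-74896224. Of the fipronil rats, 5 lay above every vehicle rat, and vehicle rat 1 was the single vehicle rat above background. The difference of 1.17 (SE 0.27) stood just outside the threshold (adjusted p = 0.0511). Ccnb1, cyclin B1, was above background on 8 and 3 arrays, and it ran from -3.34 through -2.05 to -1.51 in fipronil rats and from -3.90 through -3.46 to -1.89 in vehicle rats. Vehicle rat 6 stood apart from the other vehicle rats at the top of that range, and the difference was 1.05 (SE 0.33, adjusted p = 0.133).

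Foxm1, the transcription factor that switches on many mitotic genes, was measured on every array. It gave -1.66, -1.08 and -0.80 in fipronil rats and -1.86, -1.54 and -1.30 in vehicle rats, a difference of 0.36 (SE 0.13, adjusted p = 0.183) with 5 fipronil rats above every vehicle rat. Ccna2, cyclin A2, was above background on 5 fipronil arrays and 1 vehicle array and was not tested. Its mean signal was -3.38 ± 0.73 (SD, n = 8) and -4.44 ± 0.79 (SD, n = 7). After normexp Ccnb2 gave 0.24, Ccnb1 0.29 and Foxm1 0.19, all still positive.

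**Figure D2:**
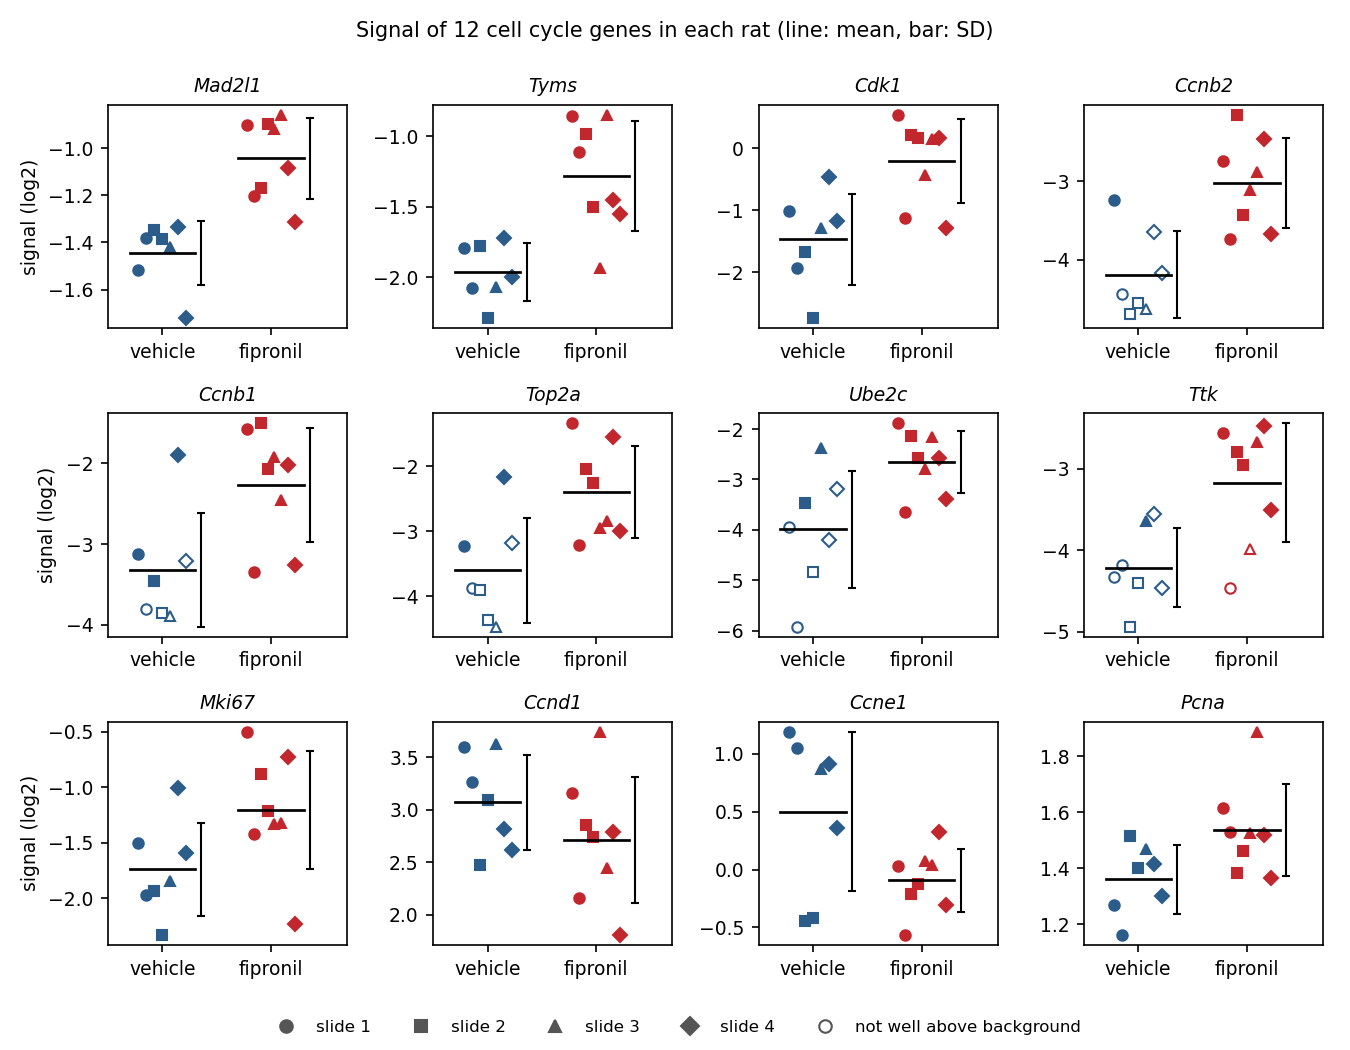
Signal in log2 units (y axis of each panel) of 12 genes of the list in each vehicle and fipronil rat, with the group mean as a line and the SD as the bar beside it; symbols show the slide and open symbols a spot not well above background. The groups are apart for Mad2l1 only, 6 fipronil rats lie above every vehicle rat for Cdk1, and most vehicle points of Ccnb2, Ttk and Top2a are open.

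The bases before the start of 3 mitotic genes are shown next, since the promoters of this class are known for CCAAT boxes, bound by NF-Y, and for the cell cycle homology region (CHR), bound by the DREAM and MuvB complexes. Capitals mark CCAAT and the CHR letters TTTGAA or TTCGAA on either strand, in the 170 bases before the annotated start.
Cdk1, GRCr8 chr20:19265123-19265292, plus strand: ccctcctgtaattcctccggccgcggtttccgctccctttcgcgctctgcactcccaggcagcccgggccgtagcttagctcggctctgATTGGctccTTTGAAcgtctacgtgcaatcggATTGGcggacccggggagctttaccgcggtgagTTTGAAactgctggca
Ccnb2, GRCr8 chr8:79981659-79981828, minus strand: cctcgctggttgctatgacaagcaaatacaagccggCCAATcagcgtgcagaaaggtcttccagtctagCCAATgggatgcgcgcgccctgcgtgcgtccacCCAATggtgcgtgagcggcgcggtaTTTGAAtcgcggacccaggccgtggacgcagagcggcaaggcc
Top2a, GRCr8 chr10:84473094-84473263, minus strand: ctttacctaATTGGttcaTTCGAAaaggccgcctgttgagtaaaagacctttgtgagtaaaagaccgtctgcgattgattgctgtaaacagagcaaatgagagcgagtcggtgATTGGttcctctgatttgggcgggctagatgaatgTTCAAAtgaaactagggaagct
Cdk1 held 2 CHR and 2 CCAAT matches in this stretch, Ccnb2 held 1 and 3, and Top2a held 2 and 2. Both kinds of letters were present in the 250 bases before the start in 6 of the 17 mitotic genes of the list that the table holds. Of these 17, 7 held a CHR match and 13 a CCAAT match. Among its 10 replication and nucleotide genes, 2 held both, 3 a CHR match and 7 a CCAAT match. Of all promoters listed there, 6.31% held both, 17.4% a CHR match and 34.0% a CCAAT match. Short letters such as these occur often, and no binding was measured.

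The mitotic kinases and the chromosomal passenger complex were uneven. Ttk, the MPS1 kinase that starts checkpoint signalling, was above background on 6 fipronil arrays and 1 vehicle array. Its signal was -4.46, -2.87 and -2.48 in fipronil rats and -4.94, -4.33 and -3.56 in vehicle rats. The difference was 1.04 (SE 0.30, adjusted p = 0.102), positive on all 4 slides, with 6 fipronil rats above every vehicle rat. Birc5, survivin, the subunit that targets AURKB to the centromere, was measured on all arrays and differed by 0.40 (SE 0.18, adjusted p = 0.264).

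Plk1, polo-like kinase 1, differed by 0.22 (95% interval -0.20 to 0.63), and its second probe by 0.20. Aurka, the kinase of the spindle poles, differed by -0.10 (-0.41 to 0.21). Aurkb, the kinase of the passenger complex, was above background on 1 fipronil array and no vehicle array and gives no fold.

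The spindle checkpoint and the anaphase machinery held the gene that passed. Mad2l1 encodes MAD2, which sequesters CDC20 while chromosomes are unattached. Its probe at chr4:96384801-96384860 gave -1.31, -1.0 and -0.86 in fipronil rats and -1.72, -1.38 and -1.33 in vehicle rats. All 8 fipronil rats lay above all 7 vehicle rats, as in 0.380% of the features tested, and no other member had groups apart. The difference of 0.40 corresponds to 1.32-fold (95% interval 1.16 to 1.51). It was 0.40, 0.33, 0.53 and 0.33 within slides 1 to 4, so its direction held on each slide. The gap between the groups was narrow, since the lowest fipronil rat lay at -1.31 and the highest vehicle rat at -1.33.

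The Mad2l1 call was close to the threshold and went with small changes of method. It was kept in 12 of 36 alternatives, with adjusted p from 0.0194 to 0.275, while the difference stayed between 0.24 and 0.47. Leaving out any rat other than fipronil rat 2, fipronil rat 8 or vehicle rat 3 ended the call, and the count of members that passed ranged from 0 to 3. With slide as a block the difference was 0.39 (adjusted p = 0.0514).

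Bub1 and Bub1b, kinase and pseudokinase of the checkpoint, differed by 0.43 (SE 0.18, adjusted p = 0.230) and 0.80 (SE 0.30, adjusted p = 0.192). Bub1 was measured on every array, Bub1b on 6 fipronil arrays and 1 vehicle array. Cdc20, the activator of the anaphase-promoting complex that MAD2 holds back, differed by 0.08 (95% interval -0.26 to 0.43). Its signal was -0.16, 0.35 and 0.53 in fipronil rats and -0.34, 0.13 and 0.74 in vehicle rats, so no fipronil rat exceeded the highest vehicle rat.

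Ube2c, the ubiquitin-conjugating enzyme of the anaphase-promoting complex, had the largest difference of the list. It was above background on 8 fipronil and 2 vehicle arrays, and gave -3.65, -2.57 and -1.89 in fipronil rats and -5.92, -3.95 and -2.38 in vehicle rats. The difference was 1.35 (SE 0.42, adjusted p = 0.133). Its vehicle SD of 1.15 was the widest of all members, and after normexp the difference was 0.27. Cdca3, which helps degrade the mitosis inhibitor WEE1 and was named by gene number, differed by 1.03 (SE 0.29, adjusted p = 0.105).

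Of the genes for spindle and chromosome mechanics only Top2a was bright enough to test. It encodes topoisomerase II alpha, which untangles sister chromatids. At chr10:87771459-87771518 it gave -3.22, -2.55 and -1.34 in fipronil rats and -4.47, -3.88 and -2.16 in vehicle rats, above background on 8 and 2 arrays. The difference was 1.20 (SE 0.36, adjusted p = 0.115), with 3 fipronil rats above every vehicle rat. After normexp it was 0.34.

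Kif11, the motor that pushes the spindle poles apart, Nusap1, Prc1 and Cenpf, which bundle microtubules or attach chromosomes, were not well above background on any array and, like Cdc6, have no measured level. Their recorded values were lower in the fipronil group by 0.29 to 0.40, on arrays whose 75th percentile was higher. The part of the array brightness in that difference was not tested.

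The rats of a group were not alike in their mitotic genes. Averaged over the 14 tested mitotic members, signal was -1.73 ± 0.41 (SD, n = 8) in fipronil rats and -2.42 ± 0.33 (SD, n = 7) in vehicle rats, with ranges from -2.41 to -1.26 and from -2.83 to -1.81. Fipronil rats 2 and 8 were the lowest of their group at -2.41 and -2.25, and each was lowest or second lowest in 12 of the 14 genes. Vehicle rat 6 was the highest of its group at -1.81, with the highest value in 10 of the 14 genes. The 14 include Ccnb1, Ccnb2, Top2a, Ube2c, Ttk and Bub1b, above background on fewer than 7 vehicle arrays, so the gap in that mean supports nothing by itself. Over the 8 mitotic members measured on every array the means were -0.91 ± 0.28 (SD, n = 8) and -1.30 ± 0.24 (SD, n = 7), and the same 3 rats stood out. There vehicle rat 6, at -0.82, lay above fipronil rats 5 and 6, at -0.88 and -0.90, besides fipronil rats 2 and 8. The mean over 9 replication and nucleotide members was -1.16 ± 0.13 (SD, n = 8) and -1.30 ± 0.22 (SD, n = 7), with vehicle rat 3 lowest at -1.76. Fipronil rat 2 had the brightest array of the study, with a 75th percentile of 269.5, and the part of that brightness in its low values was not tested.

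**Figure D3:**
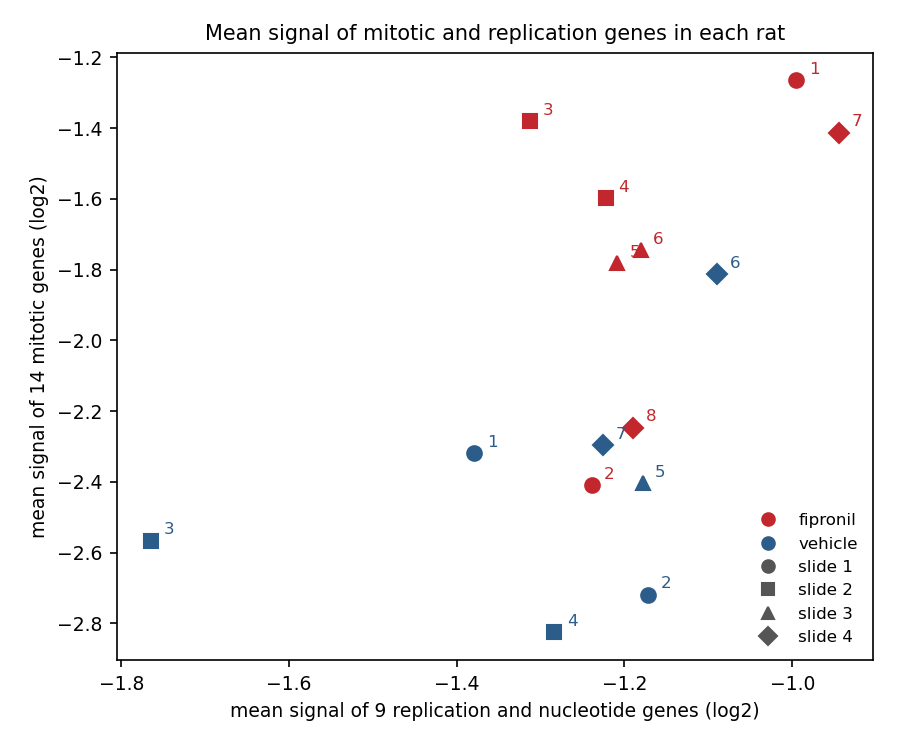
Mean log2 signal of the 14 tested mitotic members (y axis) against that of the 9 tested replication and nucleotide members (x axis), 1 point per rat with its number in the group, red for fipronil and blue for vehicle, symbols by slide. On the y axis 6 fipronil rats lie above all vehicle rats and fipronil rats 2 and 8 lie among them. The y axis includes Ccnb1, Ccnb2, Top2a, Ube2c, Ttk and Bub1b, above background on fewer than 7 vehicle arrays, so this separation supports nothing by itself. On the x axis vehicle rats 1 and 3 lie below every fipronil rat, fipronil rats 1 and 7 above every vehicle rat, and the others overlap.

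Differences varied in size between slides, each of which held 2 fipronil rats and 1 or 2 vehicle rats. Whether the slide itself changed them was not tested. The median difference over the 26 tested members was 0.30, 0.67, 0.24 and 0.14 within slides 1 to 4. The 26 include the 8 above background on fewer than 7 vehicle arrays, so these medians support nothing by themselves. For Cdk1 the difference was 1.16, 2.40, 1.15 and 0.26, and for Ccnb1 1.00, 1.87, 1.71 and -0.09. Slide 4 holds fipronil rat 8 and vehicle rat 6, and slide 1 holds fipronil rat 2, the 3 rats that stood out above. Of the 26 members, 7 had the same sign on all 4 slides: Mad2l1, Tyms, Cdk1, Ccnb2, Top2a, Ttk and Bub1b, all higher with fipronil. Ccnb2, Top2a, Ttk and Bub1b were above background on fewer than 7 vehicle arrays. The share of all features with the same sign on all 4 slides was not counted, so the count supports nothing by itself.

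**Figure D4:**
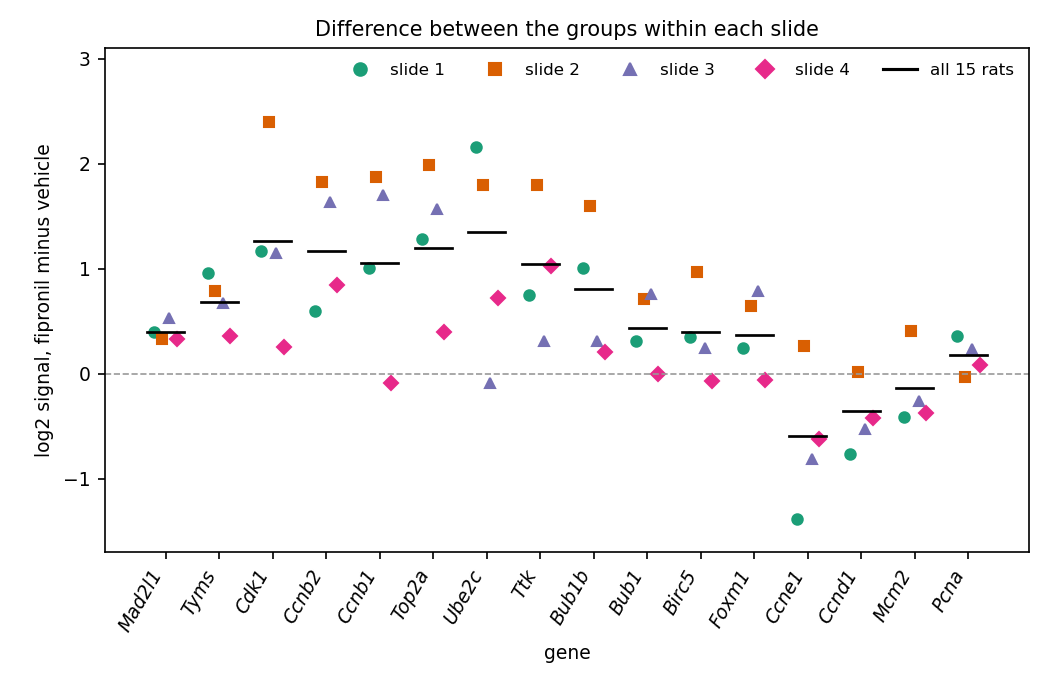
Difference in log2 signal, fipronil minus vehicle (y axis), within each of the 4 slides (symbols) and over all 15 rats (line) for 16 members (x axis). Slide 2 gives the largest values for Cdk1 and Top2a, slide 4 the smallest for most mitotic genes, and Mad2l1 stays between 0.33 and 0.53.

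The members fell into sets that varied together between rats, once each value was taken as its deviation from the group mean. Correlations were computed for the 210 pairs of the 21 listed genes measured on every array. In 18 pairs r was at least 0.7, which is 8.57% of the pairs, against 1.28% of all pairs of features measured on every array. The median r was 0.30 over the members' pairs and 0.01 over all pairs. No pair had a negative r that passed a permutation test adjusted over the 210 pairs, and 14 had a positive one.

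One set was the helicase. Mcm2 and Mcm3 correlated at r = 0.92 (Spearman's rho = 0.87, permutation p = 1e-05 and 0.00018, adjusted p = 0.0007 and 0.00945), where 1e-05 is the smallest p that 100000 permutations can give. Without the 2 rats farthest from the median in Mcm2, r was 0.85, and it was 0.91 within the fipronil group and 0.94 within the vehicle group. Mcm2 correlated with Cdc45 at 0.90 and with Mcm6 at 0.88. Ccne1 correlated with Mcm3 at 0.70 (adjusted p = 0.0284), while its r of 0.73 against Mcm6 and against Cdc45 did not pass (adjusted p = 0.0549 for each). Mcm7 was in no pair that passed.

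The other set was mitotic. Mki67 and Cdk1 correlated at r = 0.88 (rho = 0.94, permutation p = 1e-05 for both, adjusted p = 0.0007 for r), and r was 0.83 without the 2 rats farthest in Mki67. Mki67 correlated with Plk1 at 0.86, and Cdk1 with Birc5 at 0.81, with Plk1 at 0.79 and with Bub1 at 0.74. Bub1 with Cdc45, at 0.78, tied the mitotic set to the helicase set. The mitotic genes Foxm1, Cdc20, Mad2l1 and Aurka were in no pair that passed, nor were Tyms, Pcna, Ccnd1, Rrm1 and Rrm2. After slide means were also removed, Mcm2 with Mcm3 and Mki67 with Cdk1 kept r at 0.92 and 0.91. Part of the members also followed the brightness of the array, with r = -0.68 for Birc5, -0.65 for Cdc45, -0.61 for Bub1, -0.57 for Mcm2 and -0.33 for Cdk1; the part of brightness in the correlations was not tested.

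**Figure D5:**
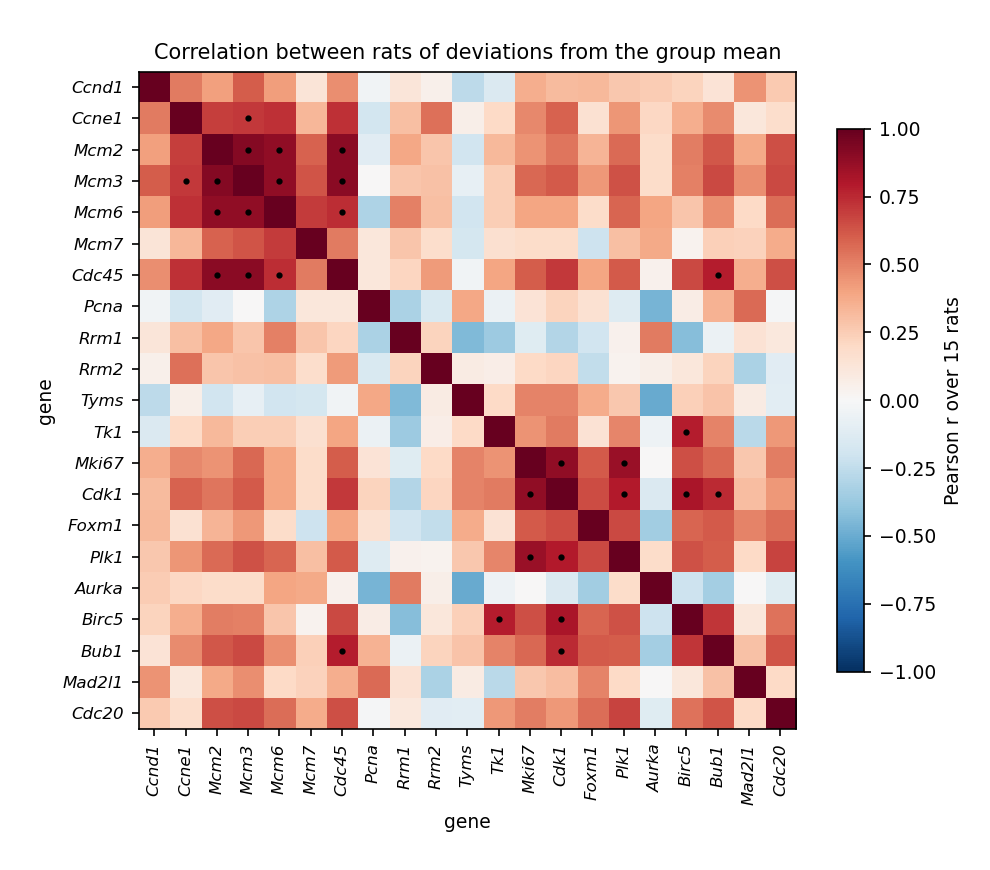
Pearson correlation over 15 rats (colour, -1 to 1) between the deviations from the group mean of 21 genes of the list on both axes, with a dot where the permutation p adjusted over 210 pairs was under 0.05. The block of Mcm2, Mcm3, Mcm6 and Cdc45 and the block of Mki67, Cdk1, Plk1, Birc5 and Bub1 stand out, while Pcna, Aurka, Rrm1 and Tyms have low or negative values with most genes.

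Several members were also among the more variable features of these livers. Pooled within groups, the SD between rats was 0.90 for Ube2c, 0.77 for Mcm4, where vehicle rat 4 stood apart, 0.76 for Top2a and 0.70 for Cdk1, against a median of 0.26 over all features. The SD of Cdk1 was above that of 96.3% of features, and that of Mad2l1, at 0.16, above 15%.

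Other genes of the same machinery were taken from lists beside the members. Of 35 further replication genes tested, such as origin and polymerase subunits, none passed in limma's test, 6 were higher and 0 lower at an unadjusted p under 0.05, and the median was 0.07. Rfc4, a subunit of the clamp loader that places PCNA, had the smallest p: it gave -0.49, -0.41 and -0.14 in fipronil rats and -0.94, -0.68 and -0.48 in vehicle rats, a difference of 0.36 (SE 0.09, adjusted p = 0.0688). Of 29 further mitosis genes tested, none passed, 6 were higher and 1 lower at an unadjusted p under 0.05, and the median was 0.21. These 29 are the part of 52 genes with a probe that met the filter. How many met it through the fipronil group was not counted, so the count and the median support nothing by themselves. Kif20a, a kinesin of cell division, gave -2.74, -1.61 and -1.11 against -4.15, -3.26 and -1.92, a difference of 1.39 (SE 0.33, adjusted p = 0.0585), above background on 8 fipronil and 5 vehicle arrays.

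Of 21 G1 kinases, E2F and DREAM factors tested, none passed, 2 were higher and 1 lower at an unadjusted p under 0.05, and the median was 0.01. Cdk6, a partner of D cyclins, had the smallest p among them, with a difference of 0.49 (SE 0.18, adjusted p = 0.191). For genes that passed, the background in each of these lists is the 0.870% of all features that passed. At an unadjusted p under 0.05 it is 6.17% of all features higher and 11.4% lower.

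In a list of brakes on the cycle and their regulators, 1 of 32 tested genes rose and none fell, while 2 were higher and 3 lower at an unadjusted p under 0.05. Of all features tested, 0.550% passed as higher, and 6.17% were higher and 11.4% lower at that unadjusted p. The gene that rose counters a brake. Mdm2, the ubiquitin ligase that degrades p53 and is itself a p53 target, gave 1.42, 1.49 and 1.76 in fipronil rats and 0.65, 0.92 and 1.09 in vehicle rats. The groups did not overlap, and the difference of 0.63 (SE 0.08, adjusted p = 0.000502) passed in all 36 alternatives. Cdkn1a and Ccng1, other p53 targets named here after their values were seen, had differences of -0.69 and -0.22 that did not pass (adjusted p = 0.195 and 0.270). Over the list the median was -0.02.

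Of 36 tested growth signals of the liver, 1 rose and none fell, 2 were higher and 6 lower at an unadjusted p under 0.05, and the median was -0.12. Over all features, 6.17% were higher and 11.4% lower at that unadjusted p, and 0.550% passed as higher. Fgf1, a fibroblast growth factor, gave -3.14, -1.87 and -1.29 in fipronil rats and -3.81, -3.38 and -2.60 in vehicle rats, a difference of 1.28 (SE 0.23, adjusted p = 0.0140), above background on 8 fipronil and 4 vehicle arrays. The call was kept in 30 of 35 alternatives and after normexp the difference was 0.43. Fgf1 was above background on fewer than 7 vehicle arrays and was not tested with the filter on all 15 arrays. It met the filter used here through the fipronil group, so the call supports nothing by itself. Myc, an early growth gene also outside the naming rule, differed by 0.01 (adjusted p = 0.993).

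Markers of the cell types in a liver fragment were read beside these results, and none of their genes passed. The summed level of 10 hepatocyte markers, in units of the array's 75th percentile, ran from 1729 to 2422 in fipronil rats and from 2186 to 3751 in vehicle rats, with 4 of 10 lower at an unadjusted p under 0.05 and 5 probes saturated on all arrays. At that p 6.17% of all features were higher and 11.4% lower, which is the background here and for the marker sets below. The summed level of the endothelial markers ran from 89.6 to 173.8 and from 72.7 to 100.9, with 4 of 8 tested higher at an unadjusted p under 0.05. Stab2, a receptor of sinusoidal endothelium, had a difference of 0.42 (adjusted p = 0.101).

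The remaining marker sums, like these, overlapped between the groups. For Kupffer cells and macrophages they ran from 122.4 to 245.9 with fipronil and from 88.5 to 289.3 with vehicle, with 0 of 11 tested under an unadjusted p of 0.05. For stellate cells and fibroblasts they ran from 36.5 to 63.7 and from 37.3 to 57.1, with 1 of 9 higher and 1 lower, and for cholangiocytes from 3.58 to 11.4 and from 3.99 to 13.6, with 1 of 7 higher. For T, B and NK cells they ran from 2.25 to 5.69 and from 1.91 to 4.17, with 1 of 7 higher, and Cd3e, Cd2 and Ms4a1 were not above background on any array. For neutrophils they ran from 0.23 to 0.77 and from 0.19 to 0.45, and for erythroid cells from 15.3 to 40.2 and from 20.1 to 67.7, with 0 of 2 and 0 of 6 under that p. The smallest p in each list but the erythroid one belonged to Ttr, Lyz2, Ngfr, Stab2, Epcam, Gzma and S100a9, with differences of -0.31, 0.21, -0.59, 0.42, 0.51, 0.60 and 0.55 in that order. The part of these cell types in the differences of the members was not tested.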

How the data were processed

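Liver RNA of 15 rats was measured, 1 array per rat. Spot intensity was extracted with Agilent Feature Extraction 9.5.3.1, per the file headers; the processed intensity is background subtracted and detrended but not normalized between arrays, and the deposited files give 0 or 1 flags for outlier, saturated and well-above-background spots. The authors' deposited table of log2 values served as an alternative; per the submitters' processing notes it was made with limma. RNA integrity numbers were above 8.7, per the labels. Slides were read from the array files. Probe positions are rn4; symbols and promoter sequences are RefSeq's, GRCr8.

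Spots flagged as outliers were left out, spots of a probe averaged, and log2 processed intensity set relative to the array's 75th percentile. Features that reached well above background on 7 or more arrays, and were missing on 3 or fewer, were tested with limma 3.58.1 (lmFit, eBayes, two-sided) in R 4.3.3, with no covariate. The fit was tested on simulated data. Alternatives were other scalings, background corrections, filters, probe rules, slide, replicate number, array weights, brightness, and leaving out each rat or slide. Nothing in the labels pools animals, so p-values measure the spread between rats.

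The members and gene lists were chosen with earlier results of these data known. All 38 genes are accounted for; values by group are given for genes past the threshold, those of smallest p and Mki67, Ccnd1, Cdk1, Pcna and Top2a, and in each other list for the genes past the threshold or, failing that, the one of smallest p. Other genes given with values by rat were added after their values were seen. The lists were other replication genes, other mitosis genes, G1 kinases with E2F and DREAM factors, brakes on the cycle, liver growth signals and 8 sets of cell type markers, some of whose genes are not reported here. A normexp setting used an offset of 50. The number of arrays limits the precision.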

Additional observations from a re-analysis of the deposited data

Results flagged for a closer look

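In 78 groups of values examined (the members in each group of rats and the arrays' brightness), 10 had a highest or lowest rat set apart from the rest by Dixon's 95% criterion; chance flags about 1 in 20 groups. Vehicle rat 6 was the highest of its group for Ccnb1 at -1.89, with the next rat at -3.13, and for Plk1 at -0.75, with the next at -1.52. Vehicle rat 4 was the highest for Mcm4 at -1.24, with the next at -3.42. Vehicle rat 7 was the lowest for Aurka at -2.19, with the next at -1.88. Fipronil rat 2 had the brightest array of its group, with a 75th percentile of 269.5 and the next at 216.5. The same rat was the lowest for Cdc6 at -6.31, for Nusap1 at -6.71 and for Cenpf at -6.70, and vehicle rat 7, whose array was the dimmest, was the highest for Nusap1 at -5.53 and for Cenpf at -5.49; none of these 5 values was well above background.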

How the results depend on the processing

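Over 36 alternatives, the median difference of the tested members stayed positive, and the count of members past the threshold was 0 to 3. The count was 3 after scaling to the median of all probes, quantile normalization or slide as a random block. It was 2 with the 75th percentile of probes above background on all arrays, the filter on all 15 arrays, the mean of a gene's probes, array weights or eBayes with trend. It was 0 after normexp, in the authors' table, with no filter, with the filter on at least 1 array, with slide as a block, with brightness as a covariate, and without slide 1 or slide 4. Leaving out 1 rat gave 0 to 3 members. Ccnb2, above background on 1 vehicle array, was in every count of 3. It was also in the counts of 2 with the mean of a gene's probes, array weights or eBayes with trend. Its calls support nothing by themselves. Within slide 2 the median of the members was 0.67. All features past the threshold numbered 174 in the reported fit, 84 with no filter, 302 with slide as a random block, 39 with brightness as a covariate, 32 without slide 1, 48 without slide 4, and 84 (without fipronil rat 8) to 282 (without vehicle rat 3) when 1 rat was left out. Higher and lower calls were 110 and 64 in the reported fit and 164 and 50 after scaling to the median, which moved the median of all features from -0.03 to 0.04.

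Whether replicate numbers pair the rats was not tested. Same-numbered rats' deviations correlated at -0.05 to 0.38, and 3 of 7 fipronil rats correlated best with the vehicle rat of their own number. Most same-numbered rats also shared a slide, so number and slide cannot be told apart there. With a replicate block 89 features passed, 1 of them a member, Tyms, while Mad2l1 did not, 1 other mitosis gene passed and no growth signal.

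Other replication genes past the threshold numbered 1 after median scaling and 0 to 1 without 1 rat. Other mitosis genes numbered 1 after median scaling, quantile normalization, slide as a random block or eBayes with trend, 2 with array weights or without slide 4, and 0 to 1 without 1 rat. Brakes numbered 2 without slide 4 and 1 to 2 without 1 rat. Growth signals numbered 0 with the filter on all 15 arrays, where Fgf1 was not tested, with brightness, and without slide 1, 2 or 4. Of the markers, 1 cholangiocyte gene passed with slide as a block and 1 endothelial gene without slide 2.

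Signs turned only for small differences that did not pass, and the cause was not tested. With brightness as a covariate Ccne2 gave 0.12, Mcm2 0.12, Mcm3 0.27, Mcm7 0.040, Rrm2 0.20 and Cdc45 0.30. After median scaling Mcm3 gave 0.062, Mcm4 0.0071, Mcm7 0.057 and Cdc45 0.0078. After quantile normalization Mcm3 gave 0.014 and Mcm7 0.000404, after normexp Mcm3 0.0035 and Aurka 0.051, and in the authors' table Mcm3 0.027 and Aurka 0.016. With the mean of a gene's probes Mcm3 gave 0.0023 and Rrm2 0.59. With the replicate block Mcm3 gave 0.062 and Cdc45 0.0033, and with array weights Mcm3 0.049, Mcm7 0.013 and Cdc45 0.0052. Without slide 1 Mcm3 gave 0.060. Without slide 2 Mcm4 gave 0.21, Mcm6 -0.027 and Cdc20 -0.032. Without slide 3 Mcm3 gave 0.022 and Mcm7 0.12, and without slide 4 Mcm3 0.12, Rrm2 0.029 and Cdc45 0.14. Leaving out 1 rat gave -0.14 to 0.099 for Mcm3, -0.28 to 0.31 for Mcm4, -0.085 to 0.077 for Mcm7, -0.16 to 0.0041 for Aurka, -0.22 to 0.085 for Rrm2 and -0.16 to 0.044 for Cdc45.

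Ccnb2 passed in 9 of 35 alternatives, Tyms in 10 of 36 and Ttk in 1 of 35. Ccnb2 was above background on 8 fipronil arrays and Ttk on 6, but each on only 1 vehicle array. They met the filter through the fipronil group, so their passes support nothing by themselves. Cdk1 passed in none of 36, with adjusted p from 0.0557 to 0.291. Signals near background limit 16 of the 34 members.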
